A study of Sus scrofa with 12 samples.

Results

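The change of microRNAs (miRNAs) in the testis of Landrace boars between 30 and 120 days of age was described from 6 of the 12 small RNA libraries of the study, 3 from 30-day-old boars (La1, La2 and La3) and 3 from 120-day-old boars (Lb1, Lb2 and Lb3). The study set this breed beside the Hezuo pig at the same ages (libraries Ha and Hb), and those 6 libraries are used here only to ask whether the breeds differ in the change with age. All libraries came from whole testis obtained by castration, and no treatment is named for either age. The study takes 120-day-old Hezuo boars as sexually mature and describes Landrace boars of that age as still before puberty, so neither Landrace group stands for a mature boar. The RNA was extracted from pooled samples, so it is not known whether a library is 1 boar, and p-values measure the spread between these libraries. All 1452 listed miRNAs entered, of which 1446 had at least 1 count in the 6 Landrace libraries. They carry 1410 different mature sequences, and list sums below count each sequence once.

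The listed counts came to 9430965 to 16874633 per library at 30 days and to 8329156 to 13124886 at 120 days. Between 1110 and 1174 miRNAs had a count in the younger libraries and between 1290 and 1368 in the older ones. The listing holds 353 miRNAs of the pig (names that begin with ssc), 767 that match miRNAs of other species (-x for the 5p arm, -y for the 3p arm, -z where no arm is given) and 332 predicted from pig hairpins (names that begin with m, the prefix of the listing being left out). Levels are given in TPM, the count per 1000000 tags of the library. A count of 0 is listed as 0.01 TPM, and 3 counts, the limit that a count of 0 allows, correspond to 0.158 to 0.284 TPM in the younger libraries. These limits and all counting intervals cover counting error only.

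A miRNA is a short RNA cut from a hairpin that guides Argonaute proteins to messenger RNAs, mainly through its seed, bases 2 to 8 from the 5′ end, and mature miRNAs with 1 seed form a family. Before puberty the seminiferous tubules of the testis hold Sertoli cells and early germ cells. With maturation the germ cells enter meiosis and become spermatids and sperm, so that cells that were absent come to fill the tubules, while Leydig, peritubular and vascular cells lie between the tubules. Some miRNAs are known from meiotic and postmeiotic germ cells, above all the miR-34 and miR-449 family and a quickly evolving cluster on the X chromosome. In bulk tissue, fewer cells of a type and less RNA per cell cannot be told apart.

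The sequences below are from the miR-34 and miR-449 family, the X-linked family and the predicted miRNAs. They are printed as the deposited listing gives them (5′ to 3′, with T for U), and the capitals mark the seed. The first 4 share the seed GGCAGTG although only 3 of them rose with age.
ssc-miR-34c: aGGCAGTGtagttagctgattgc
miR-34-x: aGGCAGTGtaattagctgattgt
miR-449-x: tGGCAGTGtattgttagctggt
ssc-miR-34a: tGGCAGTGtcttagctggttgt

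The next 5 are the most abundant members of the X-linked family once entries that repeat, contain or lie within a more abundant one are left out, and their seeds differ from each other.
miR-508-y: aCTGTCACctttttgagtaga
miR-507-z: tGATTGGCacctctttgagtgac
miR-506-z: tGAATGGCgcctttctgagtaga
miR-514-y: tGATTGACacctctgttagtgga
miR-509-x: tACTGCAGagagtggcaatcatg

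The last 5 were predicted from hairpins, the first 3 on the X chromosome and the others on chromosomes 1 and 11.
m0001-5p: tATCCAGGcaggtgctgttctct
m0003-5p: tGACCAGGcaggtgctgttctct
m0002-3p: aATGGCGCttttttgtgaag
m0004-3p: cTCTTTGAcactgagaact
m0015-3p: gAGTCCACctgtgcctgag

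Over all miRNAs, 387 of 1446 rose (26.8%) and 194 fell (13.4%) from 30 to 120 days at an adjusted p under 0.05 (quasi-likelihood test of edgeR, adjusted after Benjamini and Hochberg, the call meant by rose and fell throughout). At the thresholds of the study, a log2 fold change beyond 1 with an unadjusted p under 0.05, 380 were higher (26.3%) and 84 were lower (5.81%). The balance of rises and falls differed with the level. Of the 678 miRNAs with a mean under 1 TPM, 148 rose and 25 fell, whereas of the 75 with at least 1000 TPM, 16 rose and 37 fell. The median log2 fold change of all miRNAs was 0.32. With scaling by library size alone it was 0.54, a shift of 0.22, and the share of calls that rose was then 77.3% in place of 66.6%, so falls of less than that shift depend on the scaling.

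The miR-34 and miR-449 family, known from multiciliated and meiotic cells, had the steepest rise of all lists. Of its 8 listed miRNAs 7 rose and none fell, with a median log2 fold change of 8.41. The summed level was 39.6, 28.6 and 35.4 TPM in La1, La2 and La3 and 15538, 14080 and 12617 TPM in Lb1, Lb2 and Lb3. The older libraries were thus at 407 times the younger ones, and the family went from 0.00387% to 1.62% of the listed counts.

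Most of that sum was ssc-miR-34c, which was at 20.2, 12.5 and 15.97 TPM at 30 days and at 11634, 10627 and 9330 TPM at 120 days. All older libraries lay far above the younger ones, and the log2 fold change was 9.16 (SE 0.193, edgeR adjusted p = 1.94e-12). RefSeq places it on Sscrofa11.1 at chr9:39280278-39280357, within BTG4 and C9H11orf88. The level of miR-449-x was 4.28, 3.89 and 5.06 TPM at 30 days and 2147, 1602 and 1856 TPM at 120 days, with a log2 fold change of 8.52 (SE 0.172). The 3p entry miR-449-y, from another hairpin, had a log2 fold change of 9.03 (SE 0.253) from levels of 0.105 to 0.190 TPM to levels of 84.5 to 106 TPM. The sequences of miR-449-x and miR-449-y were found within hairpins that the deposited listing places on the minus strand at chr16:34347016-34347078 and chr16:34347137-34347199. Both lie within CDC20B, about 30 kb from MCIDAS, a regulator of multiciliated cells. The other members called were miR-34-y (log2 fold change 8.31, SE 0.213), miR-34-x (7.30, SE 0.225), and miR-449-z and miR-34-z, which had no count at 30 days and reached 3.92 to 7.28 TPM and 0.267 to 0.524 TPM.

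The remaining member, ssc-miR-34a, carries the same seed and is known as a p53 target of many tissues. It was at 9.16, 8.44 and 9.65 TPM at 30 days and at 12.8, 11.5 and 8.28 TPM at 120 days. The groups overlapped and the log2 fold change was 0.07 (SE 0.223, edgeR adjusted p = 0.815).

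**Figure D1:**
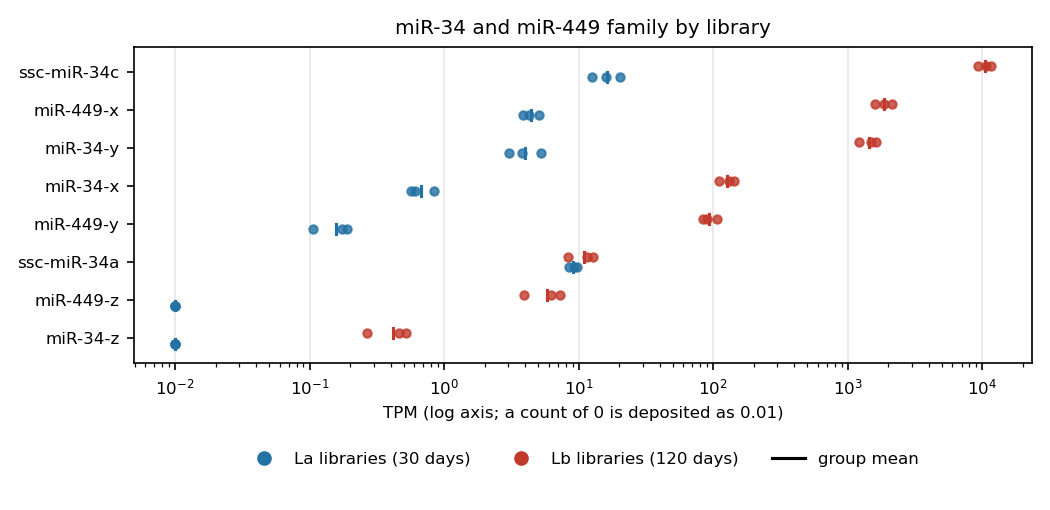
TPM (log axis) of each member of the miR-34 and miR-449 family in the 3 younger (La, blue) and 3 older (Lb, red) Landrace libraries, with 1 point per library and a tick at the group mean. The older libraries lie above the younger ones for every member but ssc-miR-34a, whose groups overlap, and 0.01 TPM stands for a count of 0.

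The X-linked miR-506 family is a cluster of primates, pigs and other mammals that is expressed mainly in testis and that changes quickly in evolution. Here 21 of its 23 listed miRNAs rose and none fell, with a median log2 fold change of 3.16. The summed level was 8752, 8282 and 7963 TPM at 30 days and 91755, 70097 and 102544 TPM at 120 days, a ratio of 10.6. Its share of the listed counts went from 0.934% to 10.1%. This sum includes entries that lie within others, and whether a tag was counted in more than 1 entry was not tested. With 1 entry kept of those that contain each other, the summed mean was 6545 TPM at 30 days and 72542 TPM at 120 days. With all entries it was 8332 and 88132 TPM. The list holds copies: 11 of its entries contained, lay within or differed by 1 base from a more abundant entry, and of the 12 left 11 rose.

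The leading member was miR-508-y, at 3517, 3456 and 3221 TPM at 30 days and at 39602, 32583 and 46608 TPM at 120 days. Its log2 fold change was 3.36 (SE 0.127, edgeR adjusted p = 5.43e-10), and the 2 ages did not overlap. The level of miR-507-z was 2642, 2290 and 2275 TPM at 30 days and 24660, 17747 and 27928 TPM at 120 days (log2 fold change 3.10, SE 0.144). A steeper change was measured for miR-506-z, from 386, 381 and 399 TPM to 6906, 5628 and 7474 TPM (log2 fold change 3.92, SE 0.123). For miR-514-y the log2 fold change was 2.64, and the same sequence is listed again as miR-509-y. For miR-509-x it was 2.89. Lb2 was the lowest older library for each of these 5.

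A few members rose by similar factors at far lower levels. One was miR-890-y (log2 fold change 4.31, SE 0.322), which stayed at 12.9 TPM or less, and another miR-513-y (3.41, SE 0.258). Both differ by 1 base from miR-508-y, and their levels came to 0.0135% and 0.0451% of it at 30 days and to 0.0268% and 0.0477% at 120 days. Whether their counts hold reads of miR-508-y with an error was not tested. The 2 members without a call, miR-892-z and miR-510-z, stayed under 0.6 TPM in all 6 libraries.

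**Figure D2:**
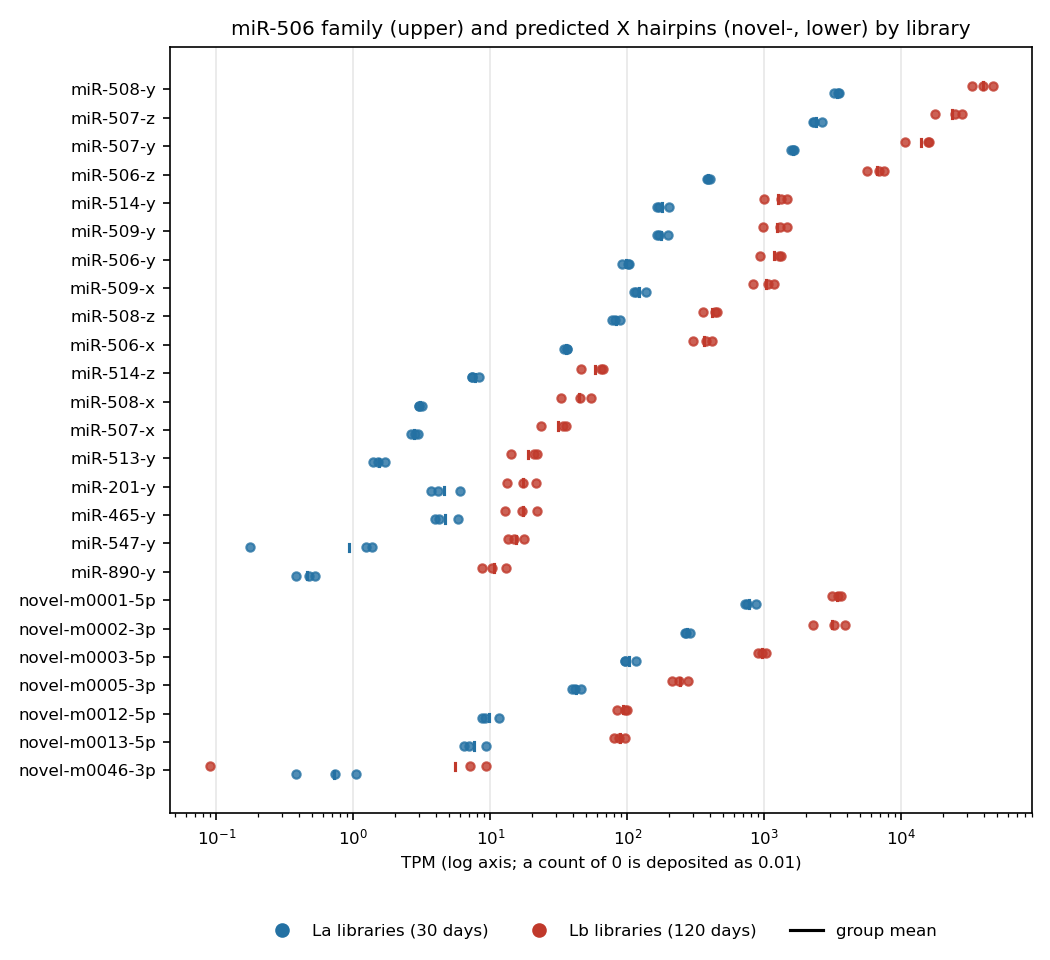
TPM (log axis) of the X-linked miR-506 family (upper rows) and of the 7 predicted X hairpins (lower rows) in the 3 younger (La, blue) and 3 older (Lb, red) Landrace libraries, with 1 point per library and a tick at the group mean. For miR-508-y the older libraries sit between 32583 and 46608 TPM and the younger ones between 3221 and 3517 TPM, and the groups overlap for m0046-3p.

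Predicted hairpins gave positions for 4 entries of the family, miR-514-y, miR-509-y, miR-509-x and miR-513-x. The most abundant entries, miR-508-y, miR-507-z, miR-507-y and miR-506-z, lie in no listed hairpin and were not placed here. Between SLITRK2 and TMEM257, which end at base 118837134 of the X chromosome, and FMR1, which starts at base 120361232, the listing has 7 hairpins, and the miRNA of each rose. The first 5 stand at chrX:118943575-118947881 and the other 2 at chrX:119807711-119846814. In m0012, at chrX:119846756-119846814 on the minus strand, lie the sequences of miR-514-y, miR-509-y and miR-509-x, and in m0002, at chrX:119807711-119807769, lies that of miR-513-x. Hairpin ends are given as listed, and the listed start may count from 0, since the hairpin sequences are 1 base shorter than the interval. The summed level of the 7 was 1316, 1182 and 1137 TPM at 30 days and 8314, 6661 and 8787 TPM at 120 days.

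The most abundant of the 7 was m0001-5p, at 863, 742 and 718 TPM at 30 days and at 3647, 3098 and 3443 TPM at 120 days (log2 fold change 1.95, SE 0.0991). The level of m0003-5p, which shares all but the start of its sequence with m0001-5p, was 115, 96.4 and 95.6 TPM at 30 days and 966, 900.5 and 1026 TPM at 120 days (log2 fold change 3.06, SE 0.116). It was 3.33 for m0002-3p, 3.35 for m0013-5p, 3.07 for m0012-5p and 2.34 for m0005-3p. None of these 6 overlapped between the ages. The remaining one, m0046-3p, was at 0.089 TPM in Lb3 and above every younger library in Lb1 and Lb2, so that its groups overlapped; its call was lost in 4 alternatives.

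The rise did not extend over the X chromosome as a whole. Of the 40 pig miRNAs that RefSeq places there, 2 rose and 13 fell, with a median log2 fold change of -0.29, beside 54 that rose and 62 that fell of 231 on the autosomes (median -0.09). Their summed mean level on the X chromosome was 17037 TPM at 30 days and 14564 TPM at 120 days. The X chromosome also held ssc-miR-676-3p, within EDA, at 114, 115 and 106 TPM at 30 days and at 38.3, 34.4 and 31.5 TPM at 120 days (log2 fold change -1.87, SE 0.134). The entry m0014-3p, listed as predicted from a hairpin at chrX:123284488-123284547 that overlaps the annotated MIR452 within GABRE, was at 50.6, 34.8 and 36.9 TPM and then at 13.2, 31.0 and 25.9 TPM (log2 fold change -0.96, edgeR adjusted p = 0.0174). That call was lost without La1 and with all 12 libraries in 1 fit.

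The miR-183, miR-96 and miR-182 cluster, best known from sensory cells and also found in germ cells, rose in all 9 of its listed miRNAs, with a median log2 fold change of 1.45. Its summed level went from 751, 839 and 801 TPM to 1868, 1970 and 1791 TPM, a ratio of 2.35. The level of ssc-miR-183 was 131, 154 and 147 TPM at 30 days and 463, 523 and 460 TPM at 120 days (log2 fold change 1.56, SE 0.132). For ssc-miR-96-5p it was 1.45 and for ssc-miR-182 0.76, the most abundant of the cluster at 959 to 1060 TPM at 120 days. No library of one age reached the levels of the other for these 3 miRNAs.

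Of the 7 listed miRNAs of miR-383, miR-184 and miR-375, which are known from testis and endocrine cells, 3 rose and none fell. The level of ssc-miR-375, a miRNA of endocrine and epithelial cells, was 4.19, 5.21 and 5.17 TPM at 30 days and 195.1, 174.9 and 142.1 TPM at 120 days (log2 fold change 4.94, SE 0.186). For miR-383-x it was 9.77, 6.73 and 12.97 TPM at 30 days and 61.1, 51.6 and 46.1 TPM at 120 days (log2 fold change 2.23, SE 0.235). The groups lay apart for both.

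The predicted miRNAs were listed because reads of some of the 12 libraries supported them, and 113 of the 328 tested had no count in any younger library, so that they could only rise. Of the 328, 43.9% rose and 8 fell, with a median log2 fold change of 2.29, beside 78 that rose and 92 that fell of the 353 pig miRNAs (median -0.14) and 165 that rose and 94 that fell of 765 known from other species (median 0.31). Of the 215 predicted miRNAs with a count at 30 days 56 rose and 8 fell, with a median of 0.73. From 0 counts in all younger libraries, 88 predicted miRNAs, 44 known from other species and 1 of the pig rose, and 6 miRNAs fell to 0 counts in all older ones. The predicted class took 0.147% to 0.170% of the listed counts at 30 days and 0.959% to 1.27% at 120 days.

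The lengths of the predicted sequences differed in how many had no count at 30 days, which were 57 of 83 with up to 19 bases, 32 of 56 with 24 or more and 17 of 135 with 22 or 23. Of 83 with up to 19 bases 53 rose and 1 fell, and of 56 with 24 or more bases 39 rose and none fell. Of 135 with 22 or 23 bases, the usual length of a miRNA, 40 rose and 5 fell. Among those with a count at 30 days, 14 of 26 with up to 19 bases, 10 of 24 with 24 or more and 25 of 118 with 22 or 23 rose, and these shares were not tested against each other. Among the longest, 37 of the 39 that rose began with T, which was the first base of 82.1% of all 56. A first T with such lengths is also known from piRNAs, the small RNAs of germ cells that guard against transposons, and whether any of these sequences is one was not tested.

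**Figure D3:**
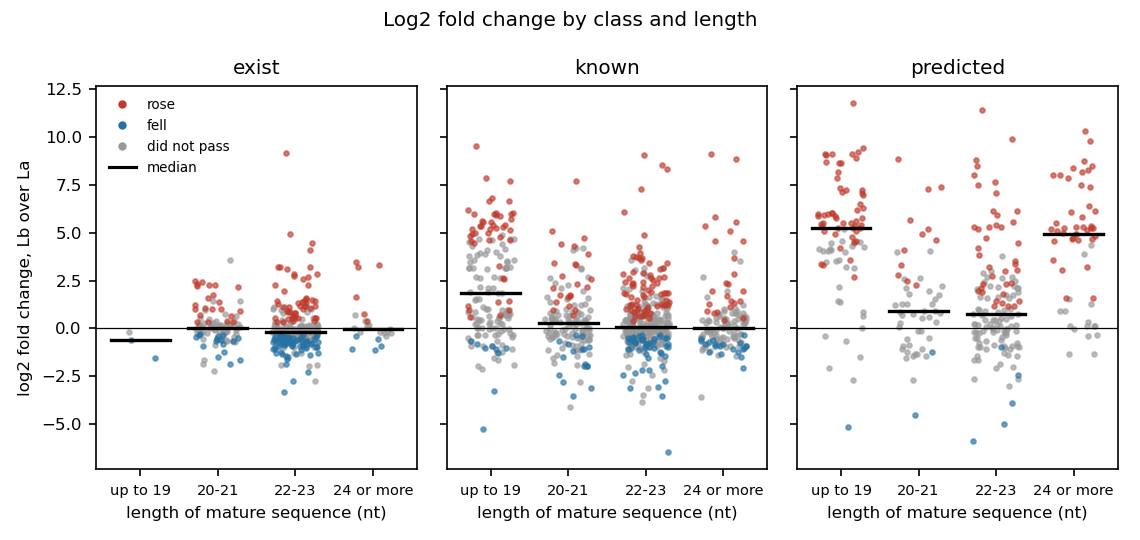
Log2 fold change from 30 to 120 days of each tested miRNA by length of the mature sequence (nt) and class (exist, the pig miRNAs; known, those of other species; predicted), with 1 point per miRNA colored by call and a bar at the median. Predicted miRNAs of up to 19 and of 24 or more bases have medians of 5.22 and 4.91, and 57 of the 83 and 32 of the 56 had no count at 30 days.

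The largest rises of predicted miRNAs started from almost no counts. The level of m0004-3p, at chr1:196461691-196461746, was 0.873, 1.23 and 0.896 TPM at 30 days and 895, 649 and 752 TPM at 120 days (log2 fold change 9.40, SE 0.192). No count of m0015-3p, at chr11:12926729-12926777 within LOC106505265, was found at 30 days, while it was at 36.4, 30.6 and 39.7 TPM at 120 days. Against the mean younger limit of 0.235 TPM it was at least 151.5-fold higher. For m0036-5p, at chr7:110108338-110108405, there was likewise no count at 30 days and 15.5, 12.7 and 10.6 TPM at 120 days, at least 55.1-fold higher. With 1 count in the younger libraries together, m0017-5p, within LOC102161833 at chr5:66780488-66780549, reached 37.5, 28.8 and 35.3 TPM, a ratio of 1414 with a 95% counting interval of 253 to 55899.5.

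Several of these predicted miRNAs lay close to each other. On chromosome 15, m0009-3p, at chr15:59938317-59938372 and listed from another hairpin as m0008-3p with the same sequence, had a log2 fold change of 9.11 (SE 0.311), and m0007-5p, at chr15:59938669-59938711, one of 8.65. On chromosome 7, 8 of the 9 hairpins at chr7:30058024-30103414 gave a miRNA that rose and none gave one that fell, and their summed mean level went from 0.217 to 62.3 TPM. At chr7:110102932-110108405 all 4 rose, m0011-3p from 1.22, 0.379 and 1.21 TPM to 217, 101 and 205.8 TPM. On chromosome 5, m0006-5p had a log2 fold change of 8.65 and all 4 hairpins of its stretch, at chr5:10429077-10440364, gave a miRNA that rose. Lb2 was the lowest older library for m0006-5p, m0007-5p and m0011-3p. A call that rested on 1 library was that of m0056-3p, within TEX14, which Lb3 alone held at 84.0 TPM and the other older libraries at 0.132 TPM or no count. Without Lb3 its log2 fold change was 3.11 with an edgeR adjusted p of 0.269.

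The gonadal miR-202, known from Sertoli cells, had no rise and 1 fall among 5 listed miRNAs. Its main product ssc-miR-202-5p was at 13888, 15826 and 14490 TPM at 30 days and at 22764, 16807 and 20641 TPM at 120 days. The older libraries were higher, but the log2 fold change was 0.26 (SE 0.107, edgeR adjusted p = 0.0746), while it was called in 4 alternatives, among them scaling by library size (0.48) and leaving out Lb2 (0.28). The main 3p product ssc-miR-202-3p was at 1291, 1354 and 1372 TPM at 30 days and at 1549, 1090 and 1402 TPM at 120 days, with overlapping groups and no call (log2 fold change -0.18, edgeR adjusted p = 0.244). The fall was that of miR-202-y, a longer entry that contains its sequence, from 54.6, 55.5 and 59.997 TPM to 46.3, 28.6 and 46.7 TPM (log2 fold change -0.67), a call that was lost with scaling by library size.

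Of the 14 miRNAs of miR-21, miR-221 and miR-222, known to hold spermatogonia in an undifferentiated state, 1 rose and 5 fell, with a median of -0.24. With scaling by library size 3 rose and 3 fell, and without Lb2 none rose, 5 fell and the median was -0.64. The level of ssc-miR-222 was 1702, 1132 and 1294 TPM at 30 days and 768, 976 and 398 TPM at 120 days (log2 fold change -1.12, SE 0.257, edgeR adjusted p = 0.00425). For ssc-miR-21-5p the log2 fold change was 0.08 (edgeR adjusted p = 0.594). The stem cell families miR-371 and miR-302 were represented by 2 miRNAs with no call, and ssc-miR-371-5p was at 0.349 TPM or less in all libraries.

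The families of somatic cells between and around the tubules went in opposite directions. Of the 9 miRNAs of miR-143 and miR-145, which mark smooth muscle and peritubular cells, 8 rose and none fell, and their summed level went from 23834 ± 3037 to 61307 ± 5056 TPM (SD, n = 3). The level of ssc-miR-143-3p was 15077, 18363 and 20280 TPM at 30 days and 44465, 37965 and 44645 TPM at 120 days (log2 fold change 1.05, SE 0.128). For ssc-miR-145-5p the log2 fold change was 1.62, and its level was 2828 to 3147 TPM at 30 days and 9454 to 11859 TPM at 120 days.

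In contrast, 10 of the 12 miRNAs of miR-199 and miR-214, known from mesenchymal cells, fell and none rose. Their summed level went from 90143 ± 4869 to 51422 ± 3941 TPM (SD, n = 3). The level of ssc-miR-199a-5p was 62488, 66664 and 69094 TPM at 30 days and 35807, 40636 and 34297 TPM at 120 days (log2 fold change -1.02, SE 0.113). For ssc-miR-199b-5p the log2 fold change was -0.91 and for ssc-miR-214-3p -0.64.

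The endothelial miR-126 fell in 3 of 4 listed miRNAs. For ssc-miR-126-3p the levels were 7738, 6746 and 6936 TPM at 30 days and 4439, 6121 and 4464 TPM at 120 days (log2 fold change -0.68, SE 0.142). Only 1 of the 4 was called with scaling by library size or without La3. Of the 17 miRNAs of miR-23, miR-24 and miR-27, which are abundant in vessels and muscle, 11 fell and none rose, and ssc-miR-27b-3p went from 54784, 53420 and 51203 TPM to 28700, 32543 and 33519 TPM (log2 fold change -0.93, SE 0.104).

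**Figure D4:**
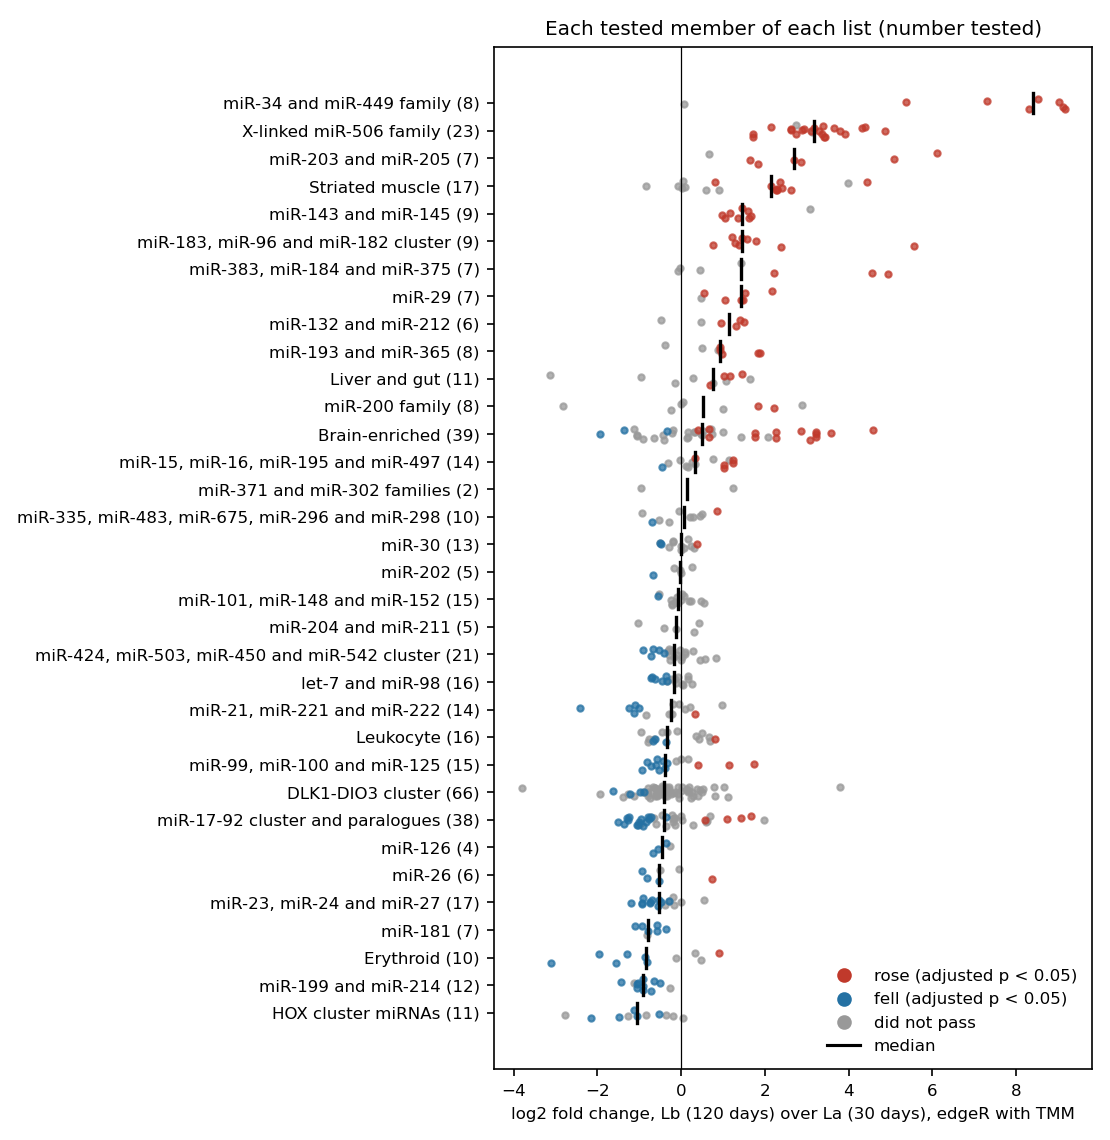
Log2 fold change (Lb over La, edgeR with TMM) of each tested member of each list, with the number tested in parentheses, 1 point per miRNA colored by call and a black bar at the median. The miR-34 and miR-449 family stands apart with a median of 8.41, followed by the X-linked miR-506 family at 3.16, and the HOX cluster miRNAs have the lowest median, -1.06.

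Of the 38 miRNAs of the miR-17-92 cluster and its paralogues, which promote proliferation, 4 rose and 15 fell, and the summed level went from 21912 ± 1488 to 13179 ± 1156 TPM (SD, n = 3). The seeds differed in this. Over all miRNAs, the 10 with the seed AAAGTGC of ssc-miR-20a-5p had 2 rises and 0 falls (2650 and 2937 TPM summed). The 15 with the seed ATTGCAC of ssc-miR-92a had 0 rises and 8 falls (16317 and 8771 TPM). The level of ssc-miR-92a was 10471, 9723 and 9104 TPM at 30 days and 5037, 4001 and 4856 TPM at 120 days (log2 fold change -1.26, SE 0.0968). For ssc-miR-19a the log2 fold change was -1.37 (SE 0.113). The entry miR-20-x, which contains ssc-miR-20a-5p and is longer, rose from 52.4, 46.9 and 44.4 TPM to 194, 171 and 152.95 TPM (log2 fold change 1.67, SE 0.1303). The far more abundant ssc-miR-20a-5p itself was at 1139, 951 and 954 TPM at 30 days and at 1109, 910.3 and 1010 TPM at 120 days (log2 fold change -0.19, edgeR adjusted p = 0.162).

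The miR-15 family, which restrains the cell cycle, had 5 rises and 1 fall among 14 listed miRNAs. The level of ssc-miR-195 was 509, 408 and 420 TPM at 30 days and 1128, 1049 and 910 TPM at 120 days (log2 fold change 1.03, SE 0.114). For miR-497-x, from the same cluster, the log2 fold change was 1.24. The log2 fold change of ssc-miR-16, the most abundant, was 0.32 (edgeR adjusted p = 0.0438), and this call was lost in 9 alternatives.

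Of the 16 miRNAs of let-7 and miR-98, known to accumulate with differentiation, none rose and 6 fell, with a median of -0.18, and with scaling by library size the median was 0.04 with 1 rise and 3 falls. The level of ssc-let-7f-5p was 40111, 42516 and 35583 TPM at 30 days and 27385, 28689 and 25678 TPM at 120 days (log2 fold change -0.71, SE 0.0995). For ssc-let-7a it was 39204 to 46109 TPM at 30 days and 41062 to 41757 TPM at 120 days, with a log2 fold change of -0.20 (edgeR adjusted p = 0.111).

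Of the 15 miRNAs of miR-99, miR-100 and miR-125, which share their clusters with members of let-7, 3 rose and 9 fell. The most abundant miRNA of the data, ssc-miR-99a-5p, was at 94346, 103762 and 103097 TPM at 30 days and at 75140, 83231 and 79820 TPM at 120 days (log2 fold change -0.52, SE 0.105). Its relative ssc-miR-100, which shares its seed, rose from 7664, 8730 and 8721 TPM to 20768, 20337 and 21484 TPM (log2 fold change 1.14, SE 0.104). The next in abundance, ssc-miR-26a, was at 95480, 95969 and 98572 TPM and then at 54793, 62326 and 55395 TPM (log2 fold change -0.93, SE 0.104), and its family had 1 rise and 3 falls among 6.

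The miR-181 family, known from lymphocytes and muscle, fell in 6 of 7 listed miRNAs with no rise, ssc-miR-181a from 16339, 16302 and 15979 TPM to 9188, 8499 and 8187 TPM (log2 fold change -1.09, SE 0.0886). The miR-29 family, which targets collagens, rose in 6 of 7. The log2 fold change was 0.56 for ssc-miR-29a-3p, 1.52 for ssc-miR-29b and 1.42 for ssc-miR-29c. Of the 6 miRNAs of miR-132 and miR-212, which are induced by gonadotropins in steroid-producing cells, 4 rose and none fell, and miR-132-x went from 10.03, 10.5 and 9.75 TPM to 35.6, 35.1 and 26.7 TPM (log2 fold change 1.504, SE 0.185). Of the 8 miRNAs of miR-193 and miR-365, known from brown fat, 5 rose and none fell, and miR-193-y had a log2 fold change of 1.83 (SE 0.170).

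Other lists held few calls. The miR-30 family had 1 rise and 2 falls among 13 listed miRNAs (5 falls without Lb2), and its summed level was 36251 ± 1600 TPM at 30 days and 36398 ± 293 TPM at 120 days (SD, n = 3). Of the 15 miRNAs of miR-101, miR-148 and miR-152, none rose and 1 fell, ssc-miR-148a-3p with a log2 fold change of -0.56, while 3 rose with scaling by library size. None of the 5 miRNAs of miR-204 and miR-211 had a call. The cluster of miR-424, miR-503, miR-450 and miR-542 on the X chromosome had no rise and 5 falls among 21, among them miR-503-x, from 90.5, 76.5 and 81.1 TPM to 44.5, 47.3 and 57.2 TPM (log2 fold change -0.91). With scaling by library size the median of this cluster went from -0.16 to 0.07.

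In several lists 1 library stood apart. The imprinted DLK1-DIO3 cluster, which is expressed in fetal and growing tissue, had a summed level of 809, 992 and 783 TPM at 30 days and of 894, 350 and 872 TPM at 120 days, with Lb2 far below every other library. Of its 66 listed miRNAs, none rose and 4 fell (2 and 2 with scaling by library size). Without Lb2 none rose and 5 fell, and the median log2 fold change was -0.16 in place of -0.40. The miRNAs of the HOX clusters had 5 falls and no rise among 11 (3 falls without La3). Here ssc-miR-10a-5p was at 1162, 1774 and 1576 TPM at 30 days and at 418, 1408 and 466 TPM at 120 days, with Lb2 among the younger libraries (log2 fold change -1.13, edgeR adjusted p = 0.0345), and this call was lost in 4 alternatives. Lb2 also held ssc-miR-10b at 54643 TPM beside 36417 and 34440 TPM in Lb1 and Lb3, and the log2 fold change was -0.36 with it and -0.71 without it. Of the same list, ssc-miR-196b-5p was at 14.4 TPM in La3 and at 0.379 to 1.15 TPM in the other 5 libraries.

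The epithelial miR-200 family had a summed level of 231, 157 and 174 TPM at 30 days and of 155.2, 380 and 142.2 TPM at 120 days, with 2 rises and no fall among 8 miRNAs, and without Lb2 there were 2 rises and 3 falls. The level of miR-200-y was 135, 90.1 and 101 TPM at 30 days and 82.2, 203.5 and 78.9 TPM at 120 days. Its log2 fold change was 0.01 with Lb2 and -0.70 without it. One member, ssc-miR-141, rose with a log2 fold change of 2.23 and was at 16.6 to 32.7 TPM in the older libraries, again highest in Lb2. Of the 10 other imprinted miRNAs 1 rose and 1 fell, and these came from 1 gene: miR-335-y rose (log2 fold change 0.86) and ssc-miR-335 fell (-0.71).

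Markers of tissues other than testis also moved. The 17 miRNAs of striated muscle held 9 rises and no fall, and their summed level was 229, 266 and 325 TPM at 30 days and 894, 839 and 946 TPM at 120 days. The log2 fold change was 2.15 for ssc-miR-1 (SE 0.223), which was at 69.1 to 136 TPM and then at 479 to 571 TPM, and 2.30 for ssc-miR-133a-3p. Of the 7 miRNAs of miR-203 and miR-205, known from skin and other stratified epithelium, 6 rose and none fell, with a summed level of 144.01 to 158 TPM at 30 days and of 530 to 585 TPM at 120 days. The level of miR-203-y was 154.8, 140.6 and 150 TPM at 30 days and 547, 533 and 505 TPM at 120 days (log2 fold change 1.65, SE 0.110).

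Of the 10 erythroid miRNAs 1 rose and 6 fell, and their summed level was 2468, 2201 and 2201 TPM at 30 days and 1220, 1239 and 1272 TPM at 120 days. The level of ssc-miR-144 was 1192, 1208 and 1112 TPM at 30 days and 426, 439 and 494 TPM at 120 days (log2 fold change -1.55, SE 0.109), and the log2 fold change of its neighbour ssc-miR-451 was -0.85. For ssc-miR-486, another erythroid miRNA, it was 0.34 (edgeR adjusted p = 0.118). The 16 leukocyte miRNAs, with 1 rise and 3 falls, had a summed level of 1920 to 2086 TPM at 30 days and of 1500 to 2156 TPM at 120 days, and the ages overlapped. Without Lb2 6 of them fell, and with scaling by library size 4 rose and 1 fell. The part of blood, muscle and epithelium in the results above was not tested.

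Of the 39 miRNAs of brain, which carry 36 sequences, 14 rose and 3 fell, beside 26.8% and 13.4% of all miRNAs. Their summed level was 890 to 924 TPM at 30 days and 1526 to 1675 TPM at 120 days, a ratio of 1.75. With 1 entry kept of those that contain each other the ratio was 1.55. The 4 entries with the seed of ssc-miR-9 all rose and carry 3 sequences. The level of ssc-miR-9, a miRNA of neural progenitors, was 19.2, 21.4 and 18.6 TPM at 30 days and 246, 210 and 170 TPM at 120 days (log2 fold change 3.22, SE 0.157). For ssc-miR-129a-3p, at 71.7, 53.3 and 21.4 TPM in the older libraries, it was 3.08. Of the 11 miRNAs of liver and gut 4 rose and none fell, beside the same shares of all miRNAs, and ssc-miR-192 had a log2 fold change of 0.69.

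The largest falls of miRNAs at 100 TPM or more belonged to both arms of miR-708, to ssc-miR-676-3p, to ssc-miR-144 and to ssc-miR-19a. The hairpin of miR-708 lies at chr9:13780171-13780250 within TENM4, which encodes a teneurin adhesion protein. The level of ssc-miR-708-3p was 107, 107 and 106 TPM at 30 days and 37.1, 37.5 and 24.7 TPM at 120 days (log2 fold change -1.87, SE 0.173, edgeR adjusted p = 2.80e-06). For ssc-miR-708-5p the log2 fold change was -1.42 (SE 0.172).

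Each hairpin can give a miRNA from its 5p and its 3p arm, and their ratio asks whether the arms of 1 precursor changed alike. Of 83 pig pairs with both arms listed, 67 were tested, and the log2 ratio of 5p to 3p differed between the ages in 26 (38.8%, limma with Benjamini-Hochberg adjustment). It moved toward 5p in 19 and toward 3p in 7. Most changes were small, with a median absolute change of 0.32 over all pairs, and 3 of the called changes were over 1 on the log2 scale.

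The largest shift toward 5p was that of ssc-miR-345, whose log2 ratio was 3.59, 3.80 and 3.76 at 30 days and 5.11, 5.14 and 4.61 at 120 days, a difference of 1.23 (SE 0.154, limma adjusted p = 0.00180). For ssc-miR-425 the difference was 1.02 (SE 0.0900) and for ssc-miR-26b 0.74 (SE 0.104). Toward 3p, the log2 ratio of ssc-miR-4331 was 5.65, 4.89 and 4.90 at 30 days and 3.18, 4.03 and 3.02 at 120 days, a difference of -1.74 (SE 0.309). The difference was -0.84 for ssc-miR-193a and -0.70 for ssc-miR-129a. The arm with the higher mean changed in 2 of the 26. For ssc-miR-129a the mean log2 ratio was 0.51 at 30 days and -0.19 at 120 days, and for ssc-miR-582 it was -0.35 and 0.21.

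**Figure D5:**
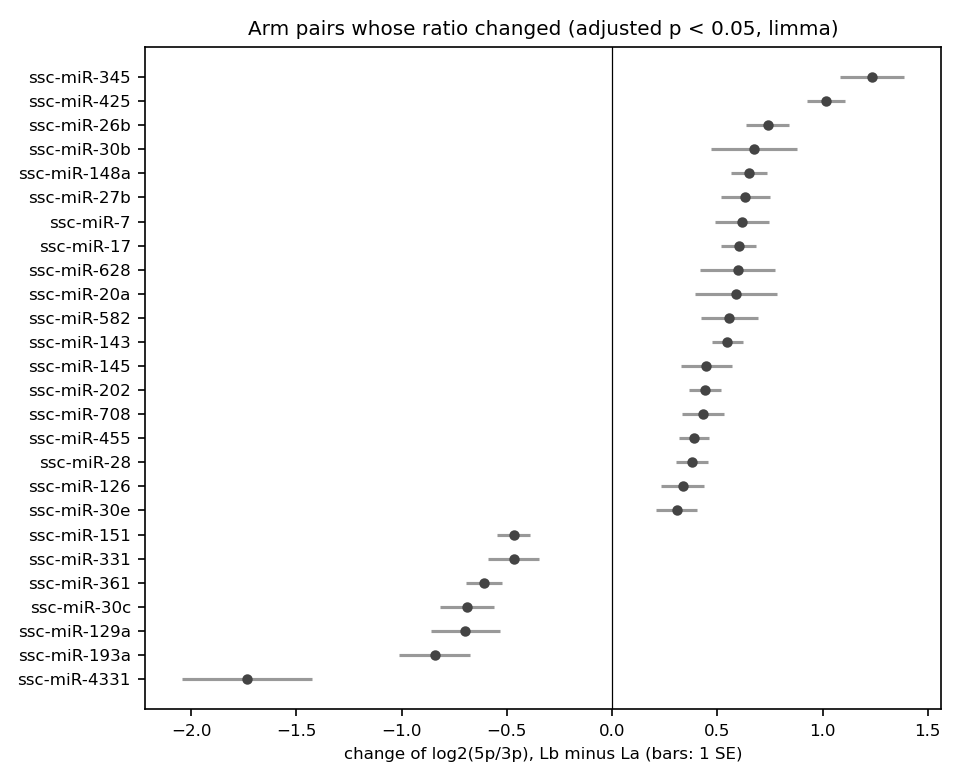
Change of log2(5p/3p) from 30 to 120 days (Lb minus La) of the 26 pairs called, with 1 point per pair and bars of 1 SE. Values above 0 are shifts toward 5p, led by ssc-miR-345 at 1.23, and values below 0 are shifts toward 3p, led by ssc-miR-4331 at -1.74.

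Whether Landrace testis changed with age differently from Hezuo testis was asked with an interaction of breed and age over all 12 libraries. At an adjusted p under 0.05 (edgeR with Benjamini-Hochberg adjustment) 20 of 1452 miRNAs differed (1.38%), 11 with a change that was more positive in Landrace and 9 with one that was more negative. Counted once per sequence there were 9 in each direction, since 3 of the 11 are entries of 1 sequence. These calls were not stable: no miRNA was called with scaling by library size, without La3 or without Lb1, while 168 were called without Hb1. At an unadjusted p under 0.05, 307 miRNAs differed, and 306 did so with scaling by library size.

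None of the 31 miRNAs of the miR-34 and miR-449 family and the X-linked miR-506 family had a called difference, which does not show that the breeds changed alike. The difference (Landrace minus Hezuo, log2) ran from -0.25 to 2.53 in the first family and from 0.02 to 2.19 in the second, where it was above 0 for all 23 listed miRNAs, which share their libraries and in part their sequences. Their median log2 fold changes were 8.41 and 3.16 in Landrace and 6.98 and 1.99 in Hezuo. For the leading members the Hezuo levels at 30 days were higher. The mean of ssc-miR-34c went from 16.2 to 10530 TPM in Landrace and from 42.7 to 4655 TPM in Hezuo. Its older Hezuo libraries were spread over 1218, 1732 and 11014 TPM. The mean of miR-508-y went from 3398 to 39598 TPM in Landrace and from 7252 to 27950 TPM in Hezuo. In the miR-424, miR-503, miR-450 and miR-542 cluster 3 miRNAs differed, each with a more positive change in Landrace, among them ssc-miR-450c-5p, from a mean of 2020 to 1431 TPM in Landrace and from 2612 to 671 TPM in Hezuo. In the DLK1-DIO3 cluster 2 differed in the same direction, among them miR-409-y, at a mean of 19.6 TPM and then 25.4 TPM in Landrace beside 45.3 TPM and then 4.98 TPM in Hezuo. The opposite was measured for ssc-miR-29a-3p, which went from 846 to 1415 TPM in Landrace and from 840 to 3414 TPM in Hezuo.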

How the data were processed

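The authors trimmed reads with fastp, removed tags of other RNA classes and repeats, used bowtie to match the remaining tags to miRBase, and ran miRDeep2 on the pig genome Sscrofa11.1 to predict miRNAs from unmatched tags. The authors deposited 1 table with raw tag counts per mature miRNA and with TPM, the count per 1000000 tags of each library. The listed counts made up 86.9% to 89.4% of the library totals behind the TPM, so changes in tags outside the listing also move TPM. Hairpin positions are those deposited by the authors, and positions of pig miRNAs and genes are from RefSeq on Sscrofa11.1.

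Counts of La and Lb were fitted with edgeR 4.0.16 (quasi-likelihood test, TMM factors, Benjamini-Hochberg adjustment, every miRNA with 1 count) in R 4.3.3. The interaction of breed and age was fitted over all 12 libraries. Arm ratios were log2 of 5p over 3p TPM with a pseudocount of 0.5, tested with limma 3.58.1. Tested pairs had both arms listed, a mean of at least 1 TPM for each arm and a further minimum on the summed mean. DESeq2 1.42.0, other scalings, filters and left-out libraries were alternatives. Scripts were tested on simulated data.

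Named are the 5 largest rises and 5 largest falls at 100 TPM or more, the 5 largest rises and 2 largest falls of predicted miRNAs at 10 TPM or more whose groups do not overlap (1 fall met this), the most abundant and the most changed member of each list at 10 TPM or more, the 5 most abundant miRNAs, 3 arm pairs per direction and 3 interactions per direction. A further 45 and the pair of ssc-miR-582 were named after their values were seen. Comparisons, members and lists were chosen with earlier results of these data known.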

Additional observations from a re-analysis of the deposited data

Results flagged for a closer look

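The change with age differed between Landrace and Hezuo testis for 8 named miRNAs (interaction of breed and age, edgeR with Benjamini-Hochberg adjustment, Landrace minus Hezuo on the log2 scale). The difference was 3.77 for ssc-miR-1249 (adjusted p = 0.0377), which went from a mean of 5.83 to 15.8 TPM in Landrace and from 15.4 to 2.73 TPM in Hezuo. It was 3.37 for miR-409-y of the DLK1-DIO3 cluster (adjusted p = 0.0324) and 1.97 for miR-216-x (adjusted p = 0.0355), which went from 7.17 to 19.5 TPM in Landrace and from 13.7 to 7.77 TPM in Hezuo. It was 1.31 for ssc-miR-450b-5p (adjusted p = 0.0324), which was at 2466 and 2267 TPM in Landrace and at 3220 and 953 TPM in Hezuo, and 1.15 for ssc-miR-450c-5p (adjusted p = 0.0355).

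In the other direction the difference was -2.52 for m0021-3p (adjusted p = 0.0145), a predicted miRNA at chrX:74286653-74286713 with 1.76 and 1.19 TPM in Landrace and 8.73 and 26.5 TPM in Hezuo. For miR-2478-z it was -1.97 (adjusted p = 0.0145), with 1065 and 1199 TPM in Landrace and 470 and 1615 TPM in Hezuo. For ssc-miR-29a-3p it was -1.73 (adjusted p = 0.0377).

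None of the 8 was called with scaling by library size, without La3 or without Lb1, and the cause was not tested.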

How the results depend on the processing

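The number that rose from La to Lb was 261 with filterByExpr and 315 with DESeq2 and the number that fell 175 and 183, with 311 to 409 and 140 to 231 when each library was left out. With library size only 31.1% of the tested miRNAs rose. At the study's thresholds the numbers without a library were 340 to 389 and 66 to 114. With a filter on low counts (filterByExpr), which leaves fewer miRNAs to test, they were 204 up and 53 down. Of 99 named miRNAs with a call, 82 kept it in every alternative run. Without Lb2 the log2 fold change of miR-200-y was -0.70 in place of 0.01, it ranged from -0.70 to 0.27 without a library, and the cause was not tested. The call of ssc-miR-128 was lost in 8 alternatives and that of ssc-miR-126-5p in 6. The calls of ssc-miR-222, ssc-miR-99a-5p, ssc-miR-29a-3p, ssc-miR-365-3p, ssc-miR-192, ssc-miR-1249 and miR-335-y were lost with all 12 libraries in 1 fit.

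The number of arm ratios called was 22 to 29 over other pseudocounts and filters and 20 to 24 without a library. Of the 1452 listed miRNAs the interaction was called in 1.38% in the analysis reported, in 2.48% with RLE factors, in 0% with library size only, in 8.82% with DESeq2, in 4.34% with filterByExpr and in 0% to 11.6% without a library. The cause was not tested.

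The replicate numbers shared by La and Lb did not pair the libraries, since their deviations correlated at 0.0187, -0.156 and 0.0880. With the replicate block 362 miRNAs rose, 192 fell and 31 arm ratios were called, and interactions in 0.207%. Recounts of each list under other scalings, without Lb2 and without La3, and sums with overlapping sequences merged, were added after seeing the data. Depth limits miRNAs at or under 0.158 to 0.315 TPM, the level of 3 counts.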
